A study of Homo sapiens with 2 samples.

Results

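The large subunit of the cytosolic ribosome was examined through the genes of its proteins. The list held 51 genes, 45 core genes of the RPL and RPLP series and 6 paralogs, RPL3L, RPL10L, RPL22L1, RPL26L1, RPL36AL and RPL39L, whose names carry an L after that of a core gene. The genes were chosen by symbol and matched to the Ensembl identifiers of the tables. The rule of choice used no measured value, but earlier results of these data were known when it was made. All 51 were found among the 57736 listed genes. Poly(A)+ RNA came from HEK293T, a line derived from human embryonic kidney and transformed further with SV40 large T antigen. By the sample records, cultures were heated at 43 °C for 20 min and returned to 37 °C for 6 h before lysis. The paper states a longer heating at the same temperature. The labels gave 2 libraries of this 1 group, replicate 1 and replicate 2, lysed separately. Untreated cells were not analysed here, so every value below is a level after recovery, and none is a response to the heat shock.

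The large subunit joins amino acids to the growing peptide, which leaves through a tunnel lined by rRNA and a few proteins. Its proteins are made in the cytoplasm, carried to the nucleolus and assembled there on the rRNA, at 1 copy each per ribosome except for the acidic stalk proteins. Most mRNAs of ribosomal proteins begin with a C and a run of pyrimidines, the terminal oligopyrimidine (TOP) tract, through which their translation is controlled together by growth signals. The same mRNAs are short and abundant and have left many processed pseudogenes, intronless copies inserted elsewhere in the genome.

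The libraries held 22529828 expected counts in replicate 1 and 26890199 in replicate 2. Expected counts are those of a quantifier that shares reads among genes they fit equally well, and TPM is the level per transcript length, scaled to the same total in each library. Values are given as the mean ± SD of the 2 libraries. Of the kidney epithelial markers in the tables, 2 of 12 were detected, PAX2 at 7.35 ± 0.69 TPM and LRP2 at 5.55 ± 0.64. None of the 8 striated muscle markers or 8 testis germ cell markers was detected, where detection means 1 TPM or more in each library. The highest of them was the testis marker SYCP3, at 0.3 TPM in replicate 1 and 1.05 in replicate 2.

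The starts of these genes are shown first, since the TOP tract is the feature they are best known to share. The sequences are RefSeq promoter entries on GRCh38.p14, 30 bases on the strand of the gene, with the tract in capitals from the C at the start of transcription. An entry was found for 38 core genes and 4 paralogs, and none was used for RPL5, RPL7, RPL8, RPL23, RPL23A, RPL30, RPL37, RPL3L and RPL39L. The genes below were picked to show short, middle and long tracts and the genes on which later results turn.

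RPL41 (chr12:56116618-56116647, plus strand): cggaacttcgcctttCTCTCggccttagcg
RPL21 (chr13:27251543-27251572, plus strand): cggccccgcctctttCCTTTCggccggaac
RPL22L1 (chr3:170870181-170870210, minus strand): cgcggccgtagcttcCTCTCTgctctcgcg
RPL11 (chr1:23691791-23691820, plus strand): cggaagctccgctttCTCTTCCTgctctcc
RPL36A (chrX:101390996-101391025, plus strand): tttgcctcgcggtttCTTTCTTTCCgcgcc
RPL26 (chr17:8383179-8383208, minus strand): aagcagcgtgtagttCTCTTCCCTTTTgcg
RPL39 (chrX:119791616-119791645, minus strand): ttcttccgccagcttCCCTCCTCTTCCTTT

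A C at the first base followed by at least 4 pyrimidines was found in 28 of the 38 core genes (73.7%), beside 1404 of 27305 genes in the whole promoter table (5.14%). The tract was 5 to 19 bases long with a median of 8, and that of RPL39 runs past the window shown. Of the paralogs, RPL22L1 carried one, and RPL10L, RPL26L1 and RPL36AL did not. The core genes without a tract at a listed start were RPL3, RPL4, RPL6, RPL9, RPL10A, RPL15, RPL17, RPL19, RPL27 and RPL32. When the tract could begin at any C within 10 bases of the start, 35 of the 38 core genes had one (92.1%), beside 38.4% of all genes. A gene counted where any of its entries did, and a reference start need not be the one used in these cells.

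Known promoter motifs were counted on both strands of the same entries, which run from 250 bases before the start to 50 after it. The ETS site CCGGAAG was in 13 of 38 core genes (34.2%), beside 12.2% of all genes. The YY1 site AAGATGGC was in 4 core genes (10.5%), RPL13A, RPL21, RPL24 and RPL35A, beside 3.52%. The GC box GGGCGG was in 21 (55.3%), beside 48.3%. The TATA box TATAAA was in 3 (7.9%), RPL3, RPL7A and RPLP0, beside 14.0%, and the E-box CACGTG was in RPL13A and RPL19, beside 8.77%. The heat shock element, the site bound by heat shock factors, was in 0 of the 38 core promoters and in 166 of 27305 promoters overall (0.608%). These are matches of letters in a window and no measure of binding.

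**Figure D1:**
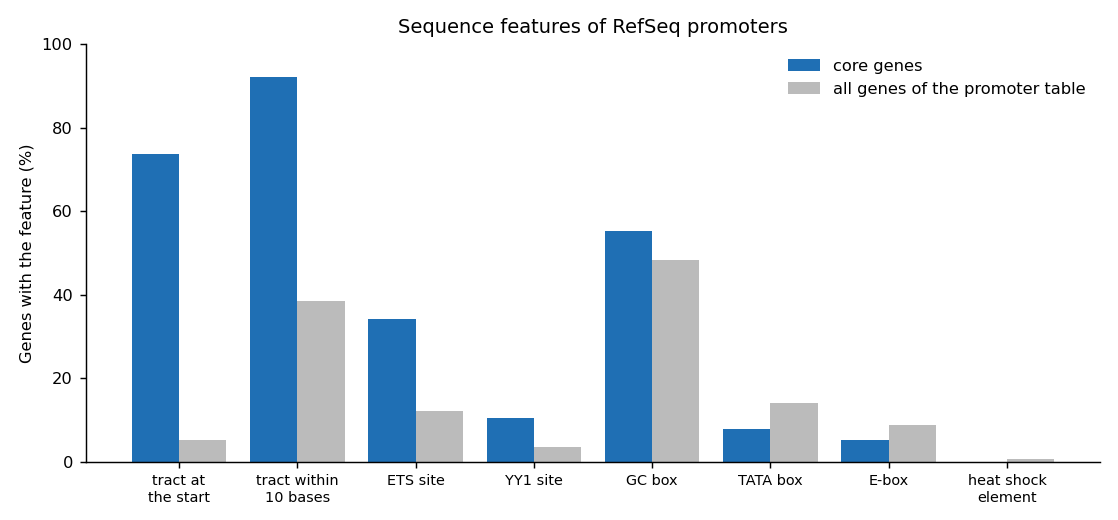
Share of genes (%, y axis) with each sequence feature in their RefSeq promoter entry, for the 38 core genes with an entry and for all 27305 genes of the table. The bars of the pyrimidine tract at the start stand furthest apart, at 73.7% and 5.14%.

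A second set of sequences bears on where reads could be placed. The coding sequences of the shortest members are shown because pseudogenes hold them whole. They were read from GRCh37, the build named in the methods. RPL41, the shortest protein of the ribosome, and RPL39, which lines the exit tunnel, are encoded by these bases.

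RPL41: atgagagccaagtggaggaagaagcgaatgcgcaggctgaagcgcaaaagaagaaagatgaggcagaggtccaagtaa
RPL39: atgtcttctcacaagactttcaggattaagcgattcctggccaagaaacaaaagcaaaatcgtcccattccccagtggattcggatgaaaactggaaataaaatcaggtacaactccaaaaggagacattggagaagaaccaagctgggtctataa

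The processed pseudogene RPL41P1 (chr20:21735908-21735985, plus strand) repeats all 78 bases of the first, and RPL39P3 (chr6:74082831-74082986, minus strand) repeats all 156 of the second. RPL36AP37 (chr11:16996240-16996560, minus strand) repeats the 321 coding bases of RPL36A, and RPL21P16 (chr10:122114213-122114695, minus strand) the 483 of RPL21. Other copies differ from their parent at a few bases, shown here in capitals within 61 bases around them.

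RPL21: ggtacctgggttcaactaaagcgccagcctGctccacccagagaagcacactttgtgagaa
RPL21P75: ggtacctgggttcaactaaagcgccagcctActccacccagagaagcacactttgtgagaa
RPL23A: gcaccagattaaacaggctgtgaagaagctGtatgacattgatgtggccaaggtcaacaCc
RPL23AP42: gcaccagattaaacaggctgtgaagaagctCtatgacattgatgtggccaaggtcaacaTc

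With positions counted from the first coding base of the parent, RPL21P75 (chr7:20042388-20042870, plus strand) had the single difference G397A. RPL23AP42 (chr3:161146915-161147385, minus strand) had G348C and C377T. RPL13AP5 (chr10:98510045-98510656, plus strand) had C105T, G206T and A273G. The libraries were sequenced with reads of 50 bases, so a coding read that covers none of these positions is the same for parent and copy. These are differences between reference sequences and not variants read from the cells.

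The first question was how much RNA each gene had. All 45 core genes and 5 of the 6 paralogs were detected, which means 1 TPM or more in each library. The core genes held 6.59% ± 0.68 of all TPM (SD, n = 2), with 7.06% in replicate 1 and 6.11% in replicate 2. They held 3.27% of expected counts, since their mRNAs are short. Core levels had a median of 1391 TPM and ran 59.9-fold, from 70.2 for RPL21 to 4206 for RPL4. Between 1000 and 3500 TPM lay 30 of the 45 genes, and 14 lay below 1000. The order of the core genes was similar in the libraries, with a Spearman's rho of 0.985 over 45 genes, which are not independent and share the libraries. RNA from all cells of a culture was pooled in each library, so fewer cells expressing a gene and less RNA per cell cannot be told apart.

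**Figure D2:**
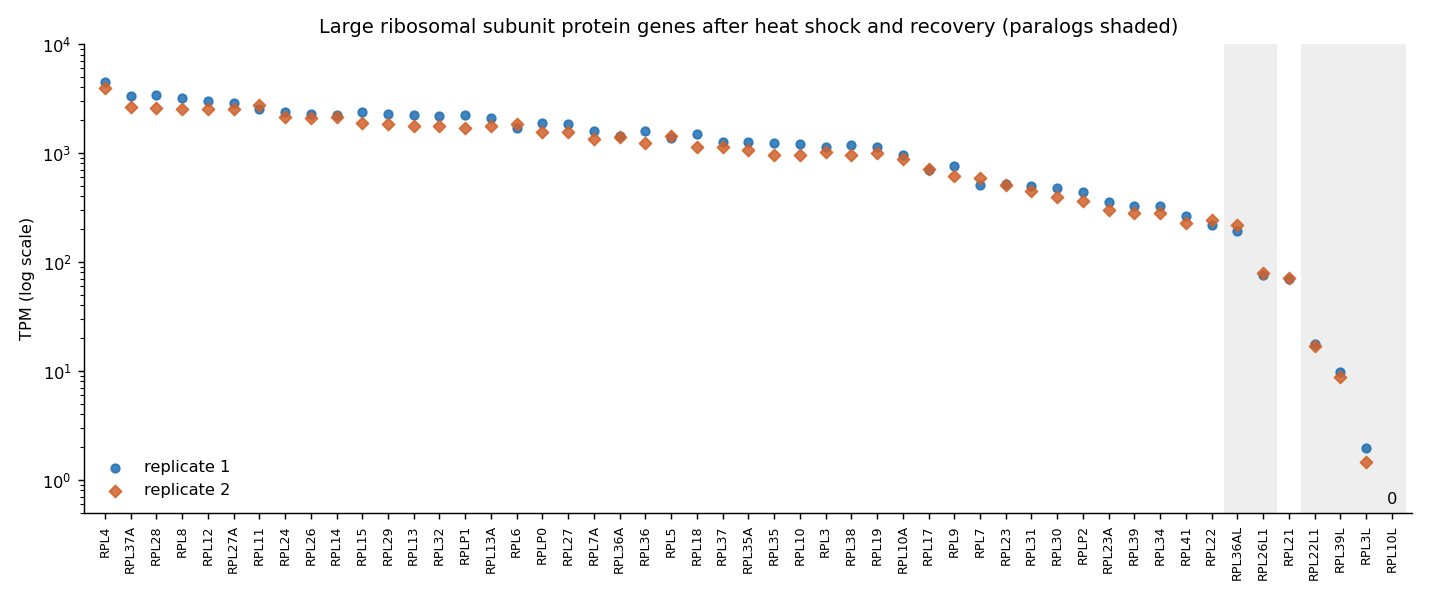
TPM (log axis) of the 51 genes in replicate 1 (circles) and replicate 2 (diamonds), ordered by mean level, with paralogs shaded. The paralogs take the low end from RPL36AL at 205 TPM down to RPL10L at 0, and RPL21 is the only core gene among them.

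RPL4, an exit tunnel protein and the largest single contributor, was at 4439 TPM in replicate 1 and 3973 in replicate 2. RPL37A, a small zinc-binding protein, followed at 3333 and 2647 TPM, and RPL28, a protein without a bacterial counterpart, at 3395 and 2584. RPL8, which lies at the peptidyl transferase centre, was at 3221 and 2540 TPM. RPL4 was the highest member in both libraries. Among the other genes of the highest 10, RPL12 was at 2752 ± 331 TPM, RPL27A at 2685 ± 235 and RPL11 at 2639 ± 167. RPL24, which reaches across to the small subunit, was at 2260 ± 151 TPM. RPL26, at the tunnel exit, was at 2185 ± 125 TPM and RPL14 at 2169 ± 76.7. The differences between neighbours in this order were smaller than their SDs, except between RPL4 and RPL37A and between RPL11 and RPL24.

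The 5S RNP is the particle of 5S rRNA with RPL5 and RPL11, which also binds MDM2 when ribosome assembly is disturbed. RPL11 was at 2521 TPM in replicate 1 and 2757 in replicate 2, and RPL5 at 1363 and 1418. RPL11 was thus above RPL5 by 1.90-fold in the means, with no overlap between the genes. The P stalk, which recruits translation factors, is built from RPLP0, RPLP1 and RPLP2 on a base that includes RPL12. RPLP0 was at 1716 ± 245 TPM, RPLP1 at 1976 ± 391 and RPLP2 at 401 ± 57.6. RPLP2 was below the other stalk genes in both libraries, at 441 and 360 TPM against a lowest value of 1542 for RPLP0.

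The other role groups ranged widely within themselves. The 8 exit tunnel genes ran from 305 TPM for RPL39 to 4206 for RPL4, with a median of 887. The 5 genes of the tRNA sites and the peptidyl transferase centre ran from 920 for RPL10A to 2881 for RPL8, the narrowest group of more than 2 genes at 3.13-fold. RPL10, which shapes the P site, was at 1078 ± 179 TPM and RPL3 at 1077 ± 65.4. The 4 genes of the bridges to the small subunit ran from 245 for RPL41 to 2260 for RPL24. The 22 remaining core genes had a median of 1578 TPM and included the lowest core gene, RPL21. Below 400 TPM were 6 core genes, namely RPL23A, RPL39, RPL34, RPL41, RPL22 and RPL21.

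Each paralog was compared with its core partner. Together the paralogs held 0.474% ± 0.076 of the TPM of all 51 genes (SD, n = 2). RPL36AL, with 90.0% coding identity to RPL36A, was the highest, at 193 TPM in replicate 1 and 217 in replicate 2, against 1418 and 1406 for RPL36A. RPL26L1 (84.2% identity) was at 77.7 ± 2.38 TPM, against 2185 for RPL26. RPL22L1 (74.0% over the aligned bases) was at 17.2 ± 0.46 TPM, against 229 ± 16.5 for RPL22. RPL39L (94.9%), a gene best known from male germ cells, was at 9.20 ± 0.72 TPM, against 305 ± 29.2 for RPL39. RPL3L (76.3%), a striated muscle gene, was at 1.71 ± 0.33 TPM, against 1077 for RPL3. Every paralog was below its partner in both libraries.

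RPL10L, which takes the place of the X-linked RPL10 in male germ cells, had 0 counts in both libraries. At 0 counts, up to 3 are allowed by counting error alone, which is a CPM (counts over the library total) of 0.133 for replicate 1 and 0.112 for replicate 2. RPL10 itself was at 1205 and 951 TPM. RPL10L has 89.1% coding identity to RPL10 and shares 1 sequence of 50 bases with it, whereas RPL36AL shares 14 with RPL36A. The other paralogs share none with their partners. No pseudogene in the tables is named after a paralog, but over whole transcripts some shared runs of 50 bases with other genes. RPL26L1 shared 356 of its 1117 runs (31.9%), 350 of them with RPL26P30, RPL36AL shared 100 of 627 and RPL39L 124 of 1032.

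The second question was how far reads were shared with pseudogenes. When reads fit several genes, the quantifier attaches a posterior SD to each count, and this was read as a percent of the posterior mean count. It was small for these genes, with a median of 0.042% over core genes and 0.099% over the paralogs. Detected protein-coding genes had a median of 0.026%, and the named pseudogenes of the members 36.5%. The last median was not limited to detected pseudogenes, which were 57 of 1084. The highest pseudogene, RPL41P1, was at 0.56% and 0.53%, and RPL21P16 at 5.54% and 6.50%. No member was above 10%, and RPL21 alone was above 5%. RPL21 was at 7.31% in replicate 1 and 7.59% in replicate 2. RPL39L was at 2.67% and 2.68%, RPL41 at 2.57% and 2.54%, RPL23A at 1.74% and 1.81%, and RPL39 at 1.36% and 1.57%. RPL36A, RPL22 and RPL9 were the other genes above 1%. RPL39L is the only paralog among these 8 genes.

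Named pseudogenes of the members, genes whose symbol is that of a member followed by P and digits or P alone, numbered 1084. Of these, 577 had no count in either library and 57 had at least 10 in both. They held 5.82% ± 0.33 of the counts of members and pseudogenes together (SD, n = 2), with 5.59% in replicate 1 and 6.06% in replicate 2. By TPM the share was 9.76%. The counts were concentrated, since 8 pseudogenes with at least 1000 counts in both libraries held 89.6% of all pseudogene counts.

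The highest was RPL41P1, at 2109 TPM in replicate 1 and 1915 in replicate 2, while its parent RPL41 was at 262 and 229. RPL36AP37 was at 1650 ± 68.9 TPM and RPL36A at 1412 ± 8.4. RPL23AP42 was at 1208 ± 79.1 TPM and RPL23A at 325 ± 36.4. RPL21P75 was at 601 ± 15.6 TPM, RPL21P16 at 219 ± 14.0 and RPL21 at 70.2 ± 1.87. RPL13AP5 was at 401 ± 28.5 TPM, below its parent at 1927 ± 228. In the first 3 families and that of RPL21 the pseudogene was thus above the parent in both libraries by TPM. By counts RPL36A was above RPL36AP37, at 10778 in replicate 1 and 12322 in replicate 2 against 8455 and 9070. The lengths used for TPM were 321 bases for RPL36AP37 and 465 and 470 for RPL36A. For RPL41P1 the tables give a transcript length of 306 bases where the annotation used here gives a span of 81, so its TPM depends on which gene model is used.

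As a share of the counts of each gene with its pseudogenes, the pseudogenes took 90.7% ± 0.31 for RPL21, 82.5% ± 0.44 for RPL41, 72.2% ± 0.69 for RPL23A and 43.4% ± 1.06 for RPL36A (SD, n = 2). RPL22 followed at 23.3% ± 0.30, RPL39 at 13.1% ± 0.72 and RPL13A at 12.6% ± 1.96. These were the 7 core genes above 10%, while 31 of the 45 were below 1%. The share hardly differed between the libraries, at 90.9% and 90.5% for RPL21 and 82.2% and 82.8% for RPL41. Its widest gap among the 7 was in RPL13A, at 11.2% and 14.0%.

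**Figure D3:**
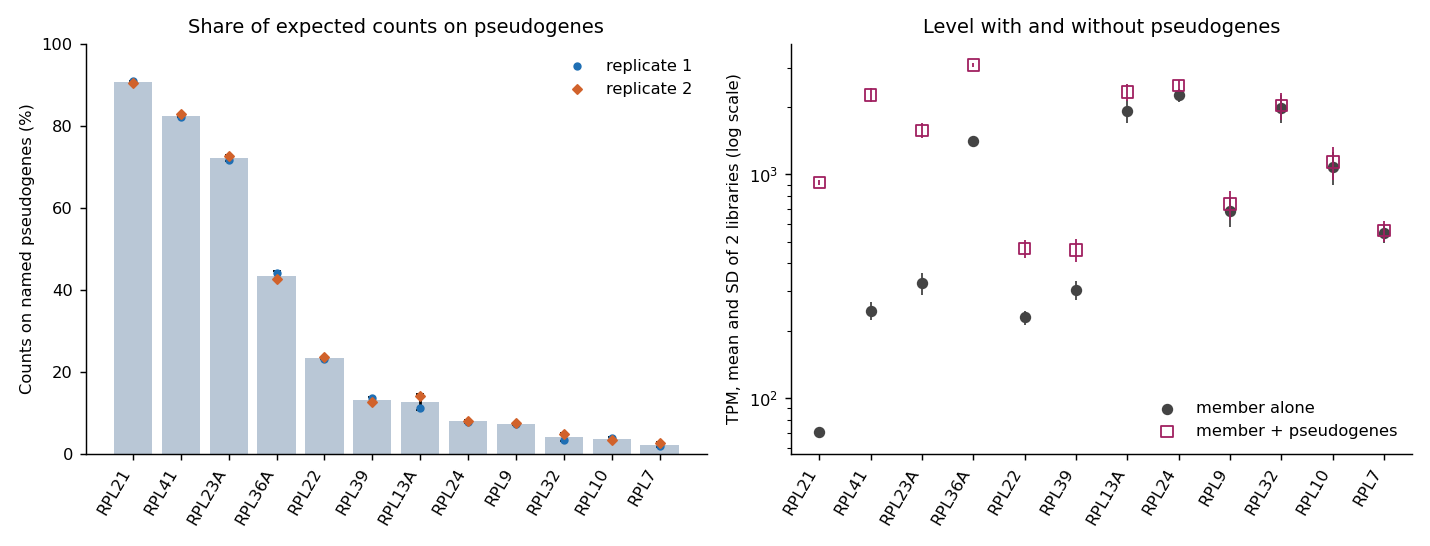
Left, share of expected counts on named pseudogenes (%, bars for the mean, error bars for the SD, points for the libraries) in the 12 core genes where it was highest. Right, TPM (log axis, mean and SD of 2 libraries) of the gene alone and with its pseudogenes added. The pair of points is furthest apart for RPL21, at 70.2 and 920 TPM.

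With the pseudogene TPM added to the parent, an alternative chosen after seeing the data, RPL21 came to 920 ± 22.5 TPM, RPL41 to 2258 ± 160, RPL23A to 1573 ± 117 and RPL36A to 3082 ± 74.3. Among the 45 core genes, RPL41 moved from rank 43 to 11, RPL23A from 40 to 22, RPL36A from 21 to 2 and RPL21 from 45 to 35. The range of core levels narrowed from 59.9-fold to 13.8-fold, and the SD of their log2 levels from 1.25 to 0.95. The added TPM rests on the lengths of the pseudogenes, 306 bases for RPL41P1 and 321 for RPL36AP37. Those of the parents were longer, 498 and 495 for RPL41 and 465 and 470 for RPL36A in replicates 1 and 2. The same reads at the parent length would give less TPM, so these sums, ranks and ranges depend on the lengths used. Which of these reads came from the parent and which from the pseudogene was not tested, and for reads inside identical sequence they cannot be told apart.

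Low levels were not limited to such genes. Of the 14 core genes below 1000 TPM, 5 had more than 10% of their counts on pseudogenes and 8 had less than 3%. RPL34, at 305 ± 33.2 TPM, and RPLP2, at 401 ± 57.6, belonged to the latter, and RPLP2 had 0 counts on its single named pseudogene.

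The posterior SD was set beside the sequences themselves. The coding sequence of each gene was cut into all runs of 50 bases, and those also present in its named pseudogenes were counted. All runs were shared for RPL21, RPL36A, RPL39 and RPL41, and none for RPL27, RPL28, RPL38, RPLP1 and RPLP2. Across the 45 core genes the posterior SD had a Spearman's rho of 0.706 with this share and of 0.699 with the percent of counts on pseudogenes, given as descriptions over genes that share the same libraries. Copies under other names are left out of this count. Over whole transcripts RPLP1 shared 145 of its 3345 runs with other genes, 98 of them with a gene that has no such symbol. RPL27A shared 364 of 7055, 243 of them with a gene of that kind. Shared sequence and shared counts did not always go together. RPL7 shared 99.7% of its runs and had 2.20% of its counts on pseudogenes, and RPL15 shared 80.7% with a posterior SD of 0.040% and 0.032%. In RPL41, RPL23A and RPL36A a posterior SD below 3% stood beside a pseudogene share above 40%.

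**Figure D4:**
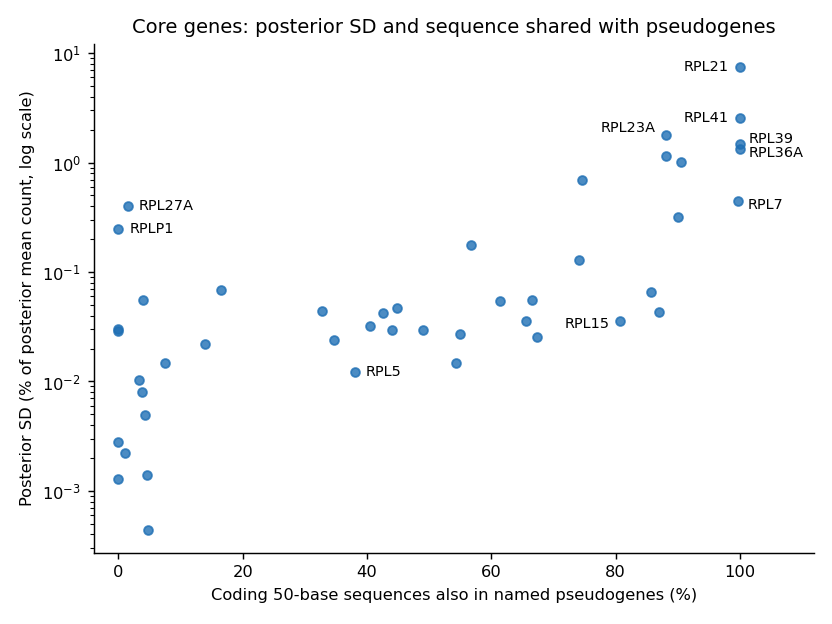
Posterior SD as a percent of the posterior mean count (log axis, mean of 2 libraries) against the percent of coding runs of 50 bases also found in named pseudogenes, for the 45 core genes. RPL21, with all runs shared, is highest, whereas RPL15 at 80.7% shared is below RPLP1 at 0. Copies under other names, which RPLP1 also has, are not counted on this axis.

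RPL9P8 and RPL9P9 showed what an undecided assignment looks like in these tables. These pseudogenes had the same level, 22.3 ± 2.93 TPM each, and the same difference T366C from RPL9. In replicate 1 each had 278 counts, and the posterior SD was 116 reads for RPL9P8 and 124 for RPL9P9. By contrast, RPL41P1 had 9918 counts in the same library and a posterior SD of only 55.5. Readthrough genes that contain a member were low. RPL17-C18orf32 was at 7.42 ± 2.20 TPM, with a posterior SD of 22.3% and 14.0%, and RPL36A-HNRNPH2 at 0.70 ± 0.01.

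The third question was how far the libraries differed for these genes. The reads of the 2 libraries, not conditions, were compared gene by gene with an exact two-sided binomial test, adjusted by Benjamini-Hochberg over 19714 genes. It called 44 of the 50 members tested at the threshold of 0.05, beside 42.2% of all genes. Of the 44, 40 were higher in replicate 1, beside 20.1% of all genes, and 4 were higher in replicate 2, beside 22.1%. The 4 were RPL6, RPL7, RPL11 and RPL22, and only RPL7 and RPL22 remained higher in replicate 2 when the scaling factors came from genes with at least 10 counts. Counts of this size make small differences pass. The core genes had a median log2 ratio of replicate 2 over replicate 1 of -0.30, beside 0.02 over all genes tested, and their range was -0.49 to 0.10. None of the 5 paralogs tested was called, and RPL21 was the only core gene that was not (adjusted p = 0.35 by the exact binomial test). This contrast between core genes and paralogs was smaller with the GC trend removed. Then 44 of 45 core genes and 2 of the 5 paralogs were called, beside 28.9% of all genes. Counts also differed between the classes. Summed counts of the paralogs tested ran from 128 for RPL3L to 5599 for RPL36AL. The lowest core gene, RPL21, had 1724, and RPL36AL was the only paralog above it.

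The 5 largest ratios among members with at least 100 counts were those of RPL3L at -0.50, RPLP1 at -0.49, RPL36 at -0.48, RPL18 at -0.48 and RPL28 at -0.47. RPL3L did not pass the test, with an adjusted p of 0.106 by the exact binomial test. RPLP1 had 2252 TPM in replicate 1 and 1700 in replicate 2, and RPL36 had 1581 and 1230. The 5S RNP genes lay near 0, RPL11 at 0.03 and RPL5 at -0.04. The 4 stalk genes were all higher in replicate 1, from -0.49 for RPLP1 to -0.34 for RPL12.

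The calls depend on counting error being the only error allowed for. In edgeR the common dispersion, estimated from these same 2 libraries taken as 1 group, corresponded to a biological coefficient of variation of 0.202. The difference under test thus entered the dispersion. A test with it could call few genes, and 0 calls do not show that the libraries agree. With that dispersion the edgeR exact test called 0 of the 50 members, beside 0.801% of all genes. At an unadjusted p under 0.05 it called 0 members, beside 6.53% of all genes. With an assumed coefficient of 0.1 it called 0 members, beside 7.69% of all genes.

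The ratio between the libraries moved with GC content over all genes, and the core genes moved with it, though less steeply. Over the 45 genes, Pearson's r between the log2 ratio and GC content was -0.613 and Spearman's rho was -0.647, as a description. With the trend of all genes removed they were 0.391 and 0.457, so the sign turned. With the GC trend of all genes removed, 46 of 50 members were called, beside 28.9% of all genes, and 44 of these were higher in replicate 1, beside 14.3%. RPL22 and RPL11 were the 2 members called higher in replicate 2, beside 14.6%. The core median was then -0.26. RPL5 moved from -0.04 to -0.33, and RPL7 turned from 0.09 to -0.20. RPL9 had the lowest core ratio under the GC correction, at -0.64. The paralogs RPL36AL, which turned from 0.07 to -0.30, and RPL22L1, at -0.66, were now called, with adjusted p of 5.6e-13 and 4.7e-06 by the exact binomial test. RPL21 was now called and RPL6 was not. What part GC content plays in the difference was not tested.

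With the trend of transcript length removed in its place, the core median was -0.16, and 42 of 50 members were called, beside 41.1% of all genes. Of these, 34 were higher in replicate 1, beside 18.3%, and 8 were higher in replicate 2, beside 22.8%. RPL5 at 0.04, RPL17 at 0.08 and RPL36A at 0.07 turned from higher in replicate 1 to higher in replicate 2. The direction of these 3 genes, of RPL7 and of RPL36AL thus depends on the correction. The sign also turned in RPL6 with the GC trend removed. With the length trend removed it turned in RPL21, RPL23, RPL31, RPL22L1 and RPL26L1. None of these was called after the turn.

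**Figure D5:**
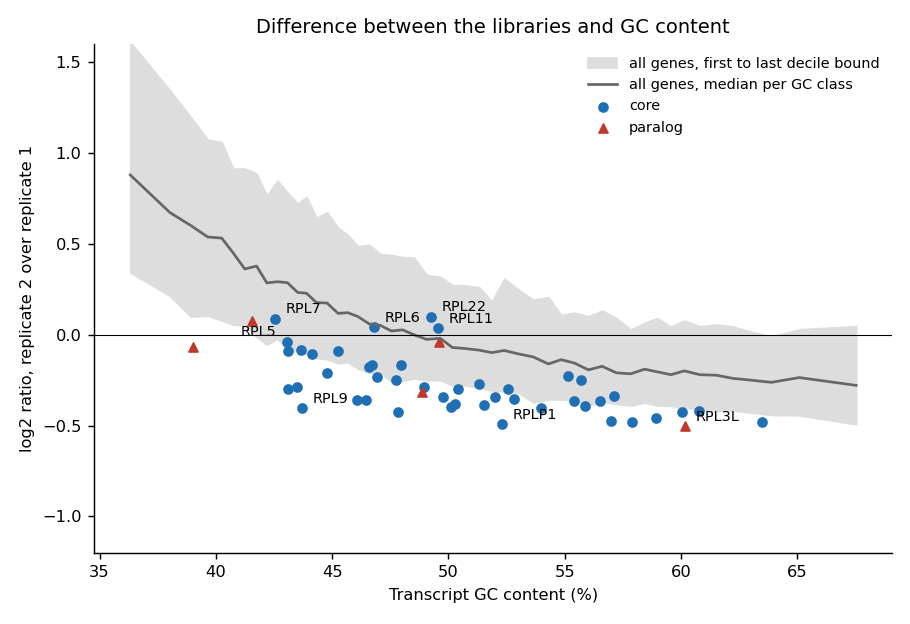
Log2 ratio of replicate 2 over replicate 1 against transcript GC content (%) for core genes and paralogs with at least 100 counts, over the median of all genes per GC class (line) and the range from their lowest to their highest decile bound (band). The core genes run from -0.49 to 0.10, most of them under the line.

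Other genes of the ribosome gave a frame for these values. The 33 small subunit proteins had a median of 828 TPM, from 10.6 ± 2.62 for RPS28 and 19.5 ± 2.13 for RPS26 to 7213 ± 1511 for RPS2. They held 4.83% ± 0.54 of TPM (SD, n = 2). The exact binomial test called 31 of them, 30 higher in replicate 1, beside 42.2% of all genes called either way, with a median log2 ratio of -0.33 close to that of the core genes. RPS29 at -0.57 and RPS15 at -0.52 had the largest ratios.

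The 24 assembly factors of the large subunit, which act in the nucleolus and on the way to the cytoplasm, were far lower, with a median of 46.0 TPM. They ran from 12.3 for ZNF622 and DDX51 to 145 ± 36.4 for RPF2 and 217 ± 72.3 for NSA2. The exact binomial test called 18 of them, beside 42.2% of all genes, and the median log2 ratio of the 24 was -0.02. Of the 18, 10 were higher in replicate 2, beside 22.1% of all genes, and 8 in replicate 1, beside 20.1%. After removal of the GC trend the test called 12, beside 28.9% of all genes, and the median was -0.08. Of the 12, 3 were higher in replicate 2, beside 14.6%, and 9 in replicate 1, beside 14.3%. NMD3, the export adaptor of the subunit, at 0.59 and BCCIP at 0.56 had the largest ratios, which came to 0.42 and 0.08 with the GC trend removed.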

How the data were processed

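Poly(A)+ RNA of 2 heat-shocked HEK293T libraries was sequenced by the authors with 50 bp reads. The submitters' processing notes name Trimmomatic 0.36, STAR 2.6.1c and RSEM 1.3.1, whereas the methods name featureCounts for counting. The tables carry the columns of RSEM. In the deposited expected counts, reads that fit several genes are split among them. Deposited TPM and FPKM values are scaled by the authors to length and library, and posterior SDs were deposited beside them. A deposited table of pooled values was used only as a check, and 32 of the 51 members lay within 0.5 read of the sum of the libraries, with a largest difference of 48.1 reads in RPL27A. Whether strand was used in counting is not stated in those sources, so overlapping and antisense genes are uncertain.

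Positions, biotypes and GC values were read from GENCODE on GRCh37, of another release than the tables, which matched 96.1% of identifiers. Promoters came from RefSeq on GRCh38.p14. Expected counts were rounded for the exact two-sided binomial test, with library shares from edgeR 4.0.16 TMM factors over all genes and adjustment over genes whose summed count reached 10. A pseudocount of 0.5 count entered the log2 ratios. Trends with GC content and length were class medians, over 50 classes of genes with at least 100 counts. Alternatives used library totals, DESeq2 1.42.0 size factors and the edgeR exact test, whose common dispersion came from the same 2 libraries. With 1 group, no test between conditions was possible, and p-values measure only the reads of these libraries. The test was checked on simulated data in which the counts held counting error only. That check cannot show how the test behaves where libraries differ by more than counting error.

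The members and lists were chosen with earlier results of these data known. TMM factors were for a time taken from filtered genes, after the first values had been seen, and the change was withdrawn. Those factors are given as an alternative chosen after seeing the data. Genes named in full were the 10 of highest TPM, the paralogs with their partners, the 5 largest ratios, the 5 largest posterior SDs, the 5S RNP and the P stalk, the 5 highest pseudogenes and readthrough genes with those sharing most sequence, and the 2 highest, 2 lowest and 2 of largest ratio of the other lists, of which a few are not reported here. RPL7, RPL15, RPL34, RPL9P8 and RPL9P9 were singled out after their values were seen.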

Additional observations from a re-analysis of the deposited data

How the results depend on the processing

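The median log2 ratio of core genes was negative under every alternative run, and the paralog share stayed within its SD. Detection was 50 members, or 49 at a TPM of at least 5, where RPL3L was lost. The ratio ran from -0.32 with TMM factors from filtered genes, chosen after seeing the data, to -0.16 with the length trend removed. The binomial test called 42 to 46 members under every scaling, count minimum and trend run, of which 8 were higher in replicate 2 with the length trend removed against 4 as reported and 2 with the GC trend removed, but the edgeR exact test called 0 with the common dispersion and 0 with an assumed coefficient of variation of 0.1. With filtered-gene TMM factors it called 42, of which 40 were higher in replicate 1 and 2 in replicate 2, beside 43.1% of all genes. The core share of 6.59% was 3.27% by expected counts, 8.16% without nuclear copies of mitochondrial genes in the total and 9.09% among protein-coding genes. The pseudogene share of 5.82% was 9.76% by TPM. The SD of log2 core levels of 1.25 was 0.95 with pseudogene TPM added. No member had a posterior SD above 10%, 1 had one above 5% and 8 above 1%. The count of 28 pyrimidine tracts was 16 when at least 7 pyrimidines had to follow the C.

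Leaving out each replicate gave a median core level of 1230 to 1418 TPM, a core share of 6.11% to 7.06%, a paralog share of 0.420% to 0.527%, an SD of log2 levels of 1.22 to 1.27 and a pseudogene share of 5.59% to 6.06%, with 50 members detected and 0 above a posterior SD of 10% each time. No paired analysis was possible because both libraries belong to 1 group. Depth limits what can be said of RPL3L, with 69 and 59 counts, and of RPL10L, with 0, and 2 libraries limit every SD.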
